A study of Rattus norvegicus with 12 samples.

Results

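The ADAM (a disintegrin and metalloproteinase), ADAMTS (ADAM with thrombospondin motifs) and ADAMTS-like genes were examined here in the central nucleus of the amygdala (CeA) of rats exposed to chronic intermittent ethanol (CIE) vapor. Members were all genes of the count table whose name is Adam, Adamts or Adamtsl followed by a digit, without *Adamts4* and *Adamts5*. They were 48 of 37209 genes listed. The libraries came from 12 wild-type male Sprague Dawley rats aged 14 to 16 weeks. The 6 rats of the CIE group inhaled ethanol vapor in daily cycles with air over several weeks and were killed when the final exposure ended, with no withdrawal. The 6 rats of the Control group were treated alike but breathed air only. Each library was poly-A RNA-Seq of CeA punches from 1 hemisphere of 1 rat. A punch mixes neurons, glia and vessel cells, so fewer cells of a type and less RNA per cell cannot be told apart.

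ADAMs are mostly membrane-anchored proteins with a metalloproteinase domain and a disintegrin domain. The catalytically active ones act as sheddases, which release the outer part of cytokines, growth factors, Notch receptors, adhesion molecules and the amyloid precursor protein from the cell surface. Other ADAMs lack an active catalytic site and work as receptors or adhesion proteins, at synapses or on germ cells. ADAMTS proteases are secreted into the extracellular matrix (ECM), where they cut proteoglycans, procollagens and other matrix proteins. The ADAMTS-like proteins share their non-catalytic part but have no protease domain, and several bind fibrillin microfibrils.

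Of the 48 members, 38 had enough counts to be tested. Differences between the groups were tested with edgeR's quasi-likelihood F test over all 20944 genes that passed the filter on low counts. Levels are given as CPM, the counts scaled to a common library size with TMM normalization, and FDR is the Benjamini-Hochberg adjusted p over all genes tested. CPM is not corrected for transcript length, so levels were compared between rats and not between genes. At a nominal p below 0.05, 9 of the 38 members differed (23.7%), where 8.31% of all genes tested did. *Adamtsl4*, *Adam26a*, *Adamts20*, *Adamts6* and *Adam8* were higher in the CIE group, and 4.0% of all genes were called in that direction. Of these, *Adam26a* met the filter on low counts through its CIE rats. *Adamts12*, *Adam17*, *Adam19* and *Adamts10* were lower, against 4.31% of all genes. Of all genes called, 48.1% were higher in the CIE group with TMM and 60.3% with library size only. No member reached 5% FDR in this test, where 0.363% of all genes did. In none of the 38 were the groups free of overlap, against 0.893% of all genes. With DESeq2, *Adamts12*, *Adamtsl4* and *Adam17* passed 5% FDR, and 1.18% of all genes did. The median log2 fold change was 0.07 over the 38 members and 0.001 over all genes.

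Library totals ranged from 39082548 to 95647601 counts, both in Control rats. CIE rats are numbered 1 to 6 and Control rats 7 to 12. Except in Control rat 11, totals exceeded the average number of reads per sample that the paper states, and the reason is not known. The 11 CeA neuron markers tested were detected in every rat, *Sst* between 105 and 261 CPM and *Penk* between 267 and 1658 CPM. *Penk* and *Pdyn* of this list were highest in CIE rats 2 and 4 and Control rat 10, the same 3 rats as the striatal markers below. In the CIE group 2 of the 11 were lower, *Crh* (log2 fold change -0.45, nominal p 0.0193) and *Nts* (-0.46, nominal p 0.0437), and none was higher. Markers of striatal projection neurons, which lie beside the CeA, stood apart in 3 libraries. Their 12 genes summed to 4852 CPM in CIE rat 2, 2265 CPM in CIE rat 4 and 5224 CPM in Control rat 10, and to between 495 and 1304 CPM in the other rats. Of 19 myelinating oligodendrocyte markers tested, 15 were lower in the CIE group and none was higher. Their sum lay between 4453 and 10810 CPM in CIE rats and between 6632 and 12330 CPM in Control rats. Of 18 endothelial markers 9 were lower and 2 higher, with sums of 432 to 587 CPM and 474 to 586 CPM. All 13 cortical glutamatergic markers had log2 fold changes above 0, and 3 of them passed. Their sums lay between 349 and 848 CPM in CIE rats, with rat 1 highest, and between 317 and 498 CPM in Control rats. *Slc17a7* of this list varied far more. It was at 348, 160.5 and 223 CPM in CIE rats 1, 2 and 4 and at 130 CPM in Control rat 10. In the other rats it lay between 3.66 and 43.3 CPM.

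Promoter sequences are shown for the 3 members with the smallest p values, to show the start sites of the genes that the comparison turns on. They are the reference sequences of RefSeq in the GRCr8 build, from 250 bases before to 50 bases after the annotated start, and not sequence read from these rats. The *Adamts12* promoter is chr2:61759737-61760036 on the plus strand, that of *Adamtsl4* is chr2:185935747-185936046 on the minus strand and that of *Adam17* is chr6:46649295-46649594 on the minus strand. Capitals mark the GC box GGGCGG, read on both strands.
Adamts12: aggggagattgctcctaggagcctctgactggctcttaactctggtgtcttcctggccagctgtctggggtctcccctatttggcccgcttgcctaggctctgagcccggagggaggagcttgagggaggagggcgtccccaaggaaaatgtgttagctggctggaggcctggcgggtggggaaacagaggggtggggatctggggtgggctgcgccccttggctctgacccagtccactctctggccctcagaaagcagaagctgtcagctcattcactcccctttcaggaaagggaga
Adamtsl4: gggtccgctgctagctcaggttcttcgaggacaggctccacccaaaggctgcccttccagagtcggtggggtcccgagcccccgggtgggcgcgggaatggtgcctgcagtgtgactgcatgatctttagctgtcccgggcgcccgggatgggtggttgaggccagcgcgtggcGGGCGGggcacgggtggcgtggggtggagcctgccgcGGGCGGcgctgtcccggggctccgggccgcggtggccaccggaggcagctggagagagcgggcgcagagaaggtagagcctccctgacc
Adam17: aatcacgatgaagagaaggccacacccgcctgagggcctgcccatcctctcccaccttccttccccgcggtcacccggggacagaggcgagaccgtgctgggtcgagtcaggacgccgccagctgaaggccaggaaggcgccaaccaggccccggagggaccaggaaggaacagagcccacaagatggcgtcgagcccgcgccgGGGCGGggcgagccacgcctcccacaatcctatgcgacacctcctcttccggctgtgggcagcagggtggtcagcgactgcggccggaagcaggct

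The *Adamtsl4* and *Adam17* promoters hold 27 and 25 CpG dinucleotides and the *Adamts12* promoter 5. Their GC content was 72.3%, 68.7% and 61.3%, against a median of 51.7% over 33469 rat promoters of the same length. The GC box lies 76 and 39 bases before the start of *Adamtsl4* and 46 bases before that of *Adam17*, and is not in the *Adamts12* window. It is found in 33.1% of all promoters and for 18 of the 31 members with a sequence. A member counts where any of its promoters holds the motif (35 promoters for the 31 members). The share over all is per promoter, so these counts are not in the same unit. The TATA box TATAAA (14.2% of all promoters), the CCAAT box CCAAT (37.5%) and the E-box CACGTG (6.42%) are in none of these 3 windows. They were found for 9, 11 and 2 of the 31 members. A match describes letters only and does not show a binding site.

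Among the 8 tested sheddases, *Adam17* and *Adam19* were lower in the CIE group and *Adam8* was higher. *Adam17* encodes the TNF-alpha converting enzyme, which also sheds ligands of the EGF receptor and the IL-6 receptor. It was at 25.5, 21.5, 20.7, 21.9, 24.2 and 29.8 CPM in CIE rats 1 to 6 and at 29.4, 30.3, 31.6, 33.0, 32.7 and 28.4 CPM in Control rats 7 to 12. All CIE rats except rat 6 were below every Control rat. The CIE mean was 0.775 of the Control mean, with a log2 fold change of -0.37 (with SE 0.09 and nominal p 0.000882, edgeR FDR 0.124). The exact permutation test over rats, two-sided, gave p = 0.00649. Without CIE rat 6 the edgeR FDR was 0.0153. With the endothelial marker score as a covariate the log2 fold change of *Adam17* was -0.23 (nominal p 0.0833), and with the myelin marker score it was -0.18 (nominal p 0.0417). Each score is the mean log2 CPM of its list and partly follows the group. Of the markers tested, 9 of 18 endothelial and 15 of 19 myelin ones were lower with CIE. In *Cd93* (-1.56) and *Kdr* (-0.92), both endothelial, the groups did not overlap. A call lost with such a score therefore does not show what the difference depends on.

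*Adam19*, a sheddase of neuregulins known from heart and nerve development, was at 16.8, 15.2, 9.40, 13.3, 13.1 and 15.4 CPM in the CIE rats and at 17.9, 19.0, 17.9, 18.1, 19.2 and 15.6 CPM in the Control rats. Of the Control rats, 5 were above every CIE rat, and CIE rat 3 was the lowest of all. The fitted log2 fold change was -0.37 (SE 0.12, nominal p 0.00690, edgeR FDR 0.327), and the exact permutation p was 0.00433. With the myelin score as a covariate it was -0.12 (nominal p 0.328) and with the endothelial score -0.20 (nominal p 0.264).

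*Adam8*, best known from leukocytes and activated microglia, was at 9.37, 7.21, 5.18, 6.31, 6.72 and 8.52 CPM in the CIE rats and at 7.54, 5.88, 4.82, 3.61, 5.50 and 5.95 CPM in the Control rats. The groups overlapped widely, and only CIE rats 1 and 6 were above every Control rat. The log2 fold change was 0.38 (with SE 0.17, at a nominal p of 0.0485, edgeR FDR 0.596), and the exact permutation p of 0.0693 missed the threshold. The nominal call was lost when any 1 of CIE rats 1, 2, 5 and 6 or Control rats 8 to 12 was left out, at p values of 0.0555 to 0.122. It was also lost with the endothelial score (0.28, nominal p 0.291), the cortical and striatal scores (0.35, nominal p 0.0653) and library size only (0.39, nominal p 0.0524).

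The other tested sheddases were not called by edgeR with all rats. *Adam10*, the main alpha-secretase of the amyloid precursor protein and a Notch sheddase, was at 92.2 ± 4.97 CPM (SD, n = 6) with CIE and 97.1 ± 4.74 CPM in controls, giving -0.07 on the log2 scale (SE 0.06, nominal p 0.201). *Adam9*, a widely expressed sheddase, was at 54.8 ± 5.23 CPM and 51.2 ± 4.89 CPM (log2 fold change 0.10, SE 0.08, nominal p 0.242). *Adam9* was called with limma-voom (0.16, nominal p 0.0463) and by edgeR without CIE rat 3 (0.15, nominal p 0.0442). *Adam15*, an ADAM with an integrin-binding motif, was at 67.5 ± 1.53 CPM and 63.7 ± 3.37 CPM. Its log2 fold change of 0.08 (SE 0.05) had a nominal p of 0.122 in edgeR and an exact permutation p of 0.0195. *Adam12* (log2 fold change -0.02, SE 0.13) and *Adam33* (0.32, SE 0.52) completed the group. *Adam33* was at low counts, between 2 and 113 per rat. *Adam28* had at most 6 counts in any rat and was not tested.

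**Figure D1:**
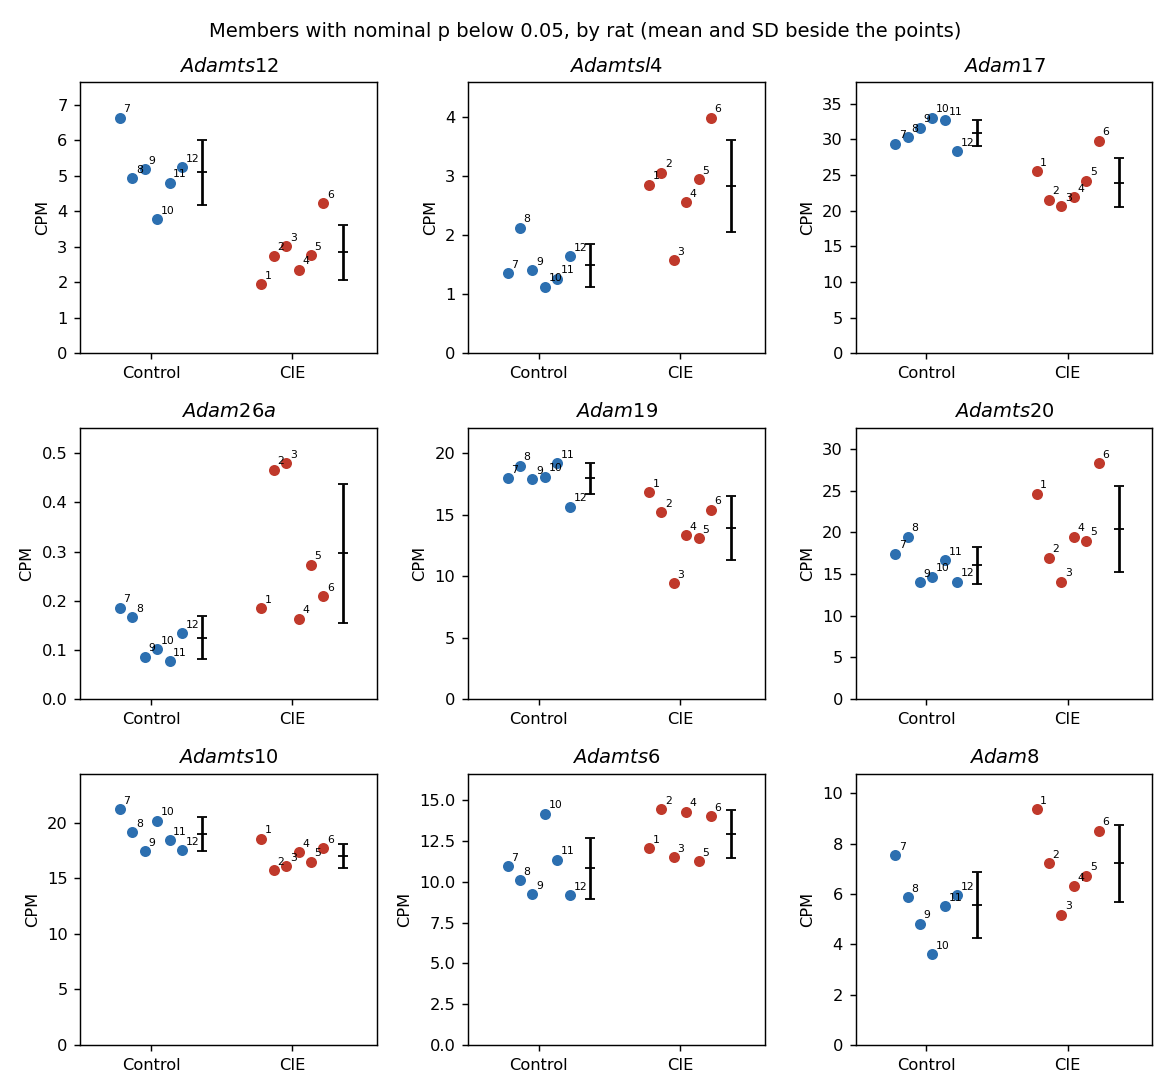
Levels of the 9 members with a nominal p below 0.05, in CPM with TMM normalization (y axis, from 0), for the Control group (blue, rats 7 to 12) and the CIE group (red, rats 1 to 6), with each point 1 rat labelled by its number and the bar beside it the mean and SD. In *Adamts12*, *Adam17* and *Adam19* 5 of 6 CIE rats lie below every Control rat, in *Adamtsl4* 5 of 6 lie above, and the other genes overlap more.

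*Adam11*, *Adam22* and *Adam23* lack an active protease site and are neuronal. ADAM22 and ADAM23 are the synaptic and axonal receptors of the secreted LGI proteins, and loss of this system causes epilepsy. No member of this group was called by edgeR. *Adam22* lay between 329 and 443 CPM in CIE rats (median 383) and between 344 and 402 CPM in Control rats (median 362), giving a log2 fold change of 0.06 (with SE 0.08 and nominal p 0.419). *Adam23* lay between 276 and 366 CPM (median 325) and between 272 and 337 CPM (median 296), with 0.12 (SE 0.09, nominal p 0.184), while limma-voom gave 0.18 (nominal p 0.0392, FDR 0.266). *Adam11* was at 185 ± 20.4 CPM (SD, n = 6) with CIE and 188 ± 11.9 CPM in controls, with -0.02 (SE 0.08, nominal p 0.768). The SE of these 3 genes was at most 0.09 on the log2 scale. Of 12 genes for LGI ligands and for proteins that bind ADAM22 or its complex, 0 were called by edgeR (all had a nominal p of 0.05 or more), with a median log2 fold change of 0.05.

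Most ADAMs of the reproductive tract, which take part in sperm maturation and sperm-egg binding, were near the limit of detection. Of 15 such members 9 were not tested, namely *Adam2*, *Adam3a*, *Adam4l1*, *Adam6*, *Adam7*, *Adam24*, *Adam30*, *Adam34* and *Adam34l*, and none of these 9 had more than 16 counts in any rat. *Adam6*, *Adam34l* and *Adam4l1* had 0 counts in all 12 rats. A count of 0 allows up to 3 counts, which is 0.0312 to 0.0775 CPM by rat and covers counting error only. *Gpr17*, *Gpr34* and *Myh11*, from the lists of OPC (oligodendrocyte precursor), microglia and mural cell markers, also had 0 counts in all 12 rats. A 0 in these counts therefore cannot be read as absence of the RNA. *Adam34* had 1 count in all. Several genes of this group have close copies. How the counting treated reads that match more than 1 copy is not given, so their values are uncertain.

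*Adam26a*, a testis-expressed ADAM, passed the nominal threshold on few counts. It met the filter on low counts through the CIE rats, which had at least 11 counts each, while Control rats went down to 3. The gene thus entered the test through the group where it was high, and its call carries that limit. The CIE rats had 12, 28, 31, 11, 19 and 17 counts and the Control rats 14, 16, 6, 6, 3 and 10 counts. In CPM, CIE rats 2, 3, 5 and 6 were above every Control rat. On the log2 scale the difference was 1.19 (SE 0.38, nominal p 0.00676, edgeR FDR 0.325). It was 0.90 (nominal p 0.0940) with the myelin score and 0.87 (nominal p 0.148) with the endothelial score as a covariate.

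*Adam32*, another testis gene, was well detected here, at 9.20, 8.20, 3.26, 12.3, 4.87 and 9.78 CPM in the CIE rats and 9.05, 4.24, 3.33, 4.50, 2.95 and 6.97 CPM in the Control rats. Its log2 fold change of 0.61 (SE 0.33, nominal p 0.0824) was not called by edgeR. It was called with DESeq2 (0.62, nominal p 0.0471, FDR 0.541) and limma-voom (0.84, nominal p 0.0177, FDR 0.201). In edgeR the call was reached without CIE rat 3 (nominal p 0.0217) or Control rat 7 (nominal p 0.0196), and the value was 0.21 with the cortical and the striatal score as covariates. The sperm protein gene *Adam1a* (8.94 ± 1.74 and 8.18 ± 1.75 CPM) and *Adam4* (0.938 ± 0.230 and 1.10 ± 0.196 CPM) were not called by edgeR, at nominal p values of 0.409 and 0.273. With the endothelial score as a covariate the log2 fold change of *Adam4* was -0.60 (nominal p 0.0477), against -0.23 without it. *Adam5* and *Adam18* had log2 fold changes of 0.37 (SE 0.38) and -0.21 (SE 0.29) on at most 55 counts per rat.

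In the order of genes in the GRCr8 annotation, *Adam32* lies beside *Adam9* and *Adam5*. Correlations across the 12 rats on the log2 CPM scale were computed for the 4 pairs of neighbouring family genes with both tested. *Adam9* and *Adam32* correlated with Pearson's r = 0.92 (permutation p = 1e-05, the smallest the permutations can give, and 4e-05 after Benjamini-Hochberg adjustment over the 4 pairs). Spearman's rho was 0.91 (permutation p = 6e-05, adjusted 0.00024). Leaving out CIE rat 3 and Control rat 11, which lay farthest from the *Adam9* median, gave r = 0.89. Within the CIE group r was 0.88 and within the Control group 0.96. Genes that are not neighbours were not correlated, so whether this is particular to neighbours was not tested.

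*Adam32* and *Adam5* correlated with r = 0.65 (permutation p = 0.0180, adjusted 0.0360) and rho = 0.57 (permutation p = 0.0594, adjusted 0.119), and r was 0.74 without CIE rat 4 and Control rat 11. Within the Control group r was 0.96 and within the CIE group 0.0042, and the difference between these values was not tested. The other pairs gave r = 0.36 for *Adamts1* with *Adamts5* (permutation p = 0.249) and r = 0.27 for *Adamts15* with *Adamts8* (permutation p = 0.395), with rho of 0.41 and 0.40. Over all rats, neither of these pairs passed the threshold.

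**Figure D2:**
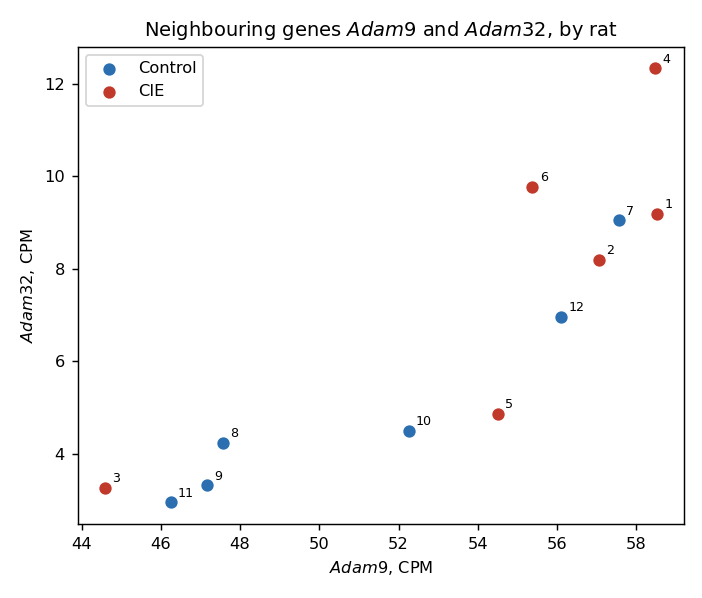
*Adam9* (x axis) and *Adam32* (y axis) in CPM, with each point 1 rat labelled by its number, Control in blue and CIE in red. Rats high in *Adam9* were high in *Adam32* in both groups (r = 0.92 over the 12 rats on the log2 scale), with CIE rat 3 at 44.6 and 3.26 CPM at the low end.

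Proteoglycan-cleaving ADAMTS enzymes cut aggrecan, brevican and versican, the large proteoglycans of perineuronal nets and brain matrix. Only *Adamts20*, known from pigment cell migration in development, was called among the 5 tested here. It was at 24.6, 17.0, 14.1, 19.5, 19.0 and 28.3 CPM in the CIE rats and at 17.4, 19.5, 14.0, 14.7, 16.6 and 14.1 CPM in the Control rats, and CIE rats 1 and 6 stood highest. Its log2 fold change was 0.35 (SE 0.15, nominal p 0.0376, edgeR FDR 0.566), and the exact permutation p of 0.0996 missed the threshold. The call was lost when any 1 of CIE rats 1 and 6 or Control rats 9 to 12 was left out, at p values of 0.0504 to 0.105. With the myelin score as a covariate the log2 fold change was 0.69 (nominal p 0.000128, edgeR FDR 0.0531), and with the cortical and striatal scores 0.27 (nominal p 0.0958).

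*Adamts1*, an enzyme induced in many tissues by inflammation and hypoxia, was at 6.42 ± 2.04 CPM (SD, n = 6) with CIE and 6.83 ± 1.52 CPM in controls (log2 fold change -0.09, SE 0.21). *Adamts9*, which takes part in proteoglycan turnover and vessel growth, was at 4.85 ± 1.25 CPM and 5.30 ± 0.896 CPM (-0.13, SE 0.17). *Adamts15* (-0.15, SE 0.15) and *Adamts8* (-0.09, SE 0.46) were not called either. Of the relatives outside the set, *Adamts4* had a log2 fold change of -1.16 (SE 0.22, edgeR FDR 0.0369), with 5 CIE rats below every Control rat, and its edgeR FDR was 0.0976 at most when 1 rat was left out. *Adamts5* had one of -0.17 (SE 0.26, nominal p 0.538).

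*Adamts12* had the smallest p value of the members. With *Adamts7* it forms the pair that cuts cartilage oligomeric matrix protein (COMP). *Adamts12* was at 1.94, 2.75, 3.01, 2.35, 2.76 and 4.22 CPM in CIE rats 1 to 6 and at 6.63, 4.93, 5.18, 3.77, 4.81 and 5.24 CPM in Control rats 7 to 12. Only CIE rat 6 and Control rat 10 overlapped, and the CIE mean was 0.557 of the Control mean. The log2 fold change was -0.84 (with SE 0.18, at a nominal p of 0.000368, rank 100 of all genes tested, edgeR FDR 0.0758). The exact permutation p was 0.00433. DESeq2 gave an FDR of 0.00175, and edgeR one of 0.0153 without CIE rat 6. The gene kept a nominal p below 0.05 under all 21 alternative fits, its log2 fold change lying between -1.03 and -0.67 and its edgeR, limma or DESeq2 FDR between 0.00175 and 0.250.

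Of the 12 meningeal fibroblast markers tested, 5 were lower in the CIE group, none was higher and 7 did not pass, with a median log2 fold change of -0.40. The sum of the 12 lay between 135 and 298 CPM in CIE rats, of which rat 6 was the highest, and between 207 and 292 CPM in Control rats. Of 11 mural cell markers, 7 were lower and none was higher, with sums of 146 to 233 CPM and 188 to 214 CPM. Their part in the *Adamts12* difference was not tested. *Adamts7*, a vascular and cartilage protease, was at 0.708, 0.783, 0.881, 1.22, 1.77 and 1.71 CPM in the CIE rats and at 2.19, 1.88, 1.71, 0.825, 1.40 and 1.57 CPM in the Control rats. The groups overlapped, and the log2 fold change was -0.44 (with SE 0.28, at a nominal p of 0.145), while limma-voom gave -0.61 (nominal p 0.0272, FDR 0.231).

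The procollagen-processing enzymes *Adamts2*, *Adamts3* and *Adamts14* remove the amino-terminal propeptide of fibrillar collagens, and ADAMTS3 also cuts reelin. None was called by edgeR. *Adamts3* was at 24.6, 41.9, 14.3, 40.2, 11.8 and 19.6 CPM in the CIE rats and at 17.0, 14.1, 24.7, 55.2, 15.4 and 14.5 CPM in the Control rats, a log2 fold change of 0.11 (with SE 0.39 and nominal p 0.775). CIE rats 2 and 4 and Control rat 10 were the highest, and these are the 3 rats with the highest striatal marker sums. *Adamts19*, a secreted protease with few known substrates that was singled out after its values were seen, was highest in the same 3 rats, at 11.99, 9.999 and 11.4 CPM, against 3.23 to 6.50 CPM in the others. Since these rats form a separate cluster, no correlation over all rats was computed.

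With the cortical and the striatal score added to the fit, the log2 fold change of *Adamts3* was -0.30 (nominal p 0.0269, edgeR FDR 0.515), the opposite sign, and that of *Adamts19* was -0.26 (nominal p 0.284). With the endothelial score as a covariate they were 1.27 (nominal p 0.0145, edgeR FDR 0.240) and 1.34 (nominal p 0.00589, edgeR FDR 0.199). *Adamts2* was at 11.6 ± 5.12 CPM (SD, n = 6) with CIE and 10.6 ± 3.07 CPM in controls (log2 fold change 0.13, SE 0.27), and *Adamts14* at 1.26 ± 0.369 and 0.964 ± 0.295 CPM (0.38, SE 0.25).

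**Figure D3:**
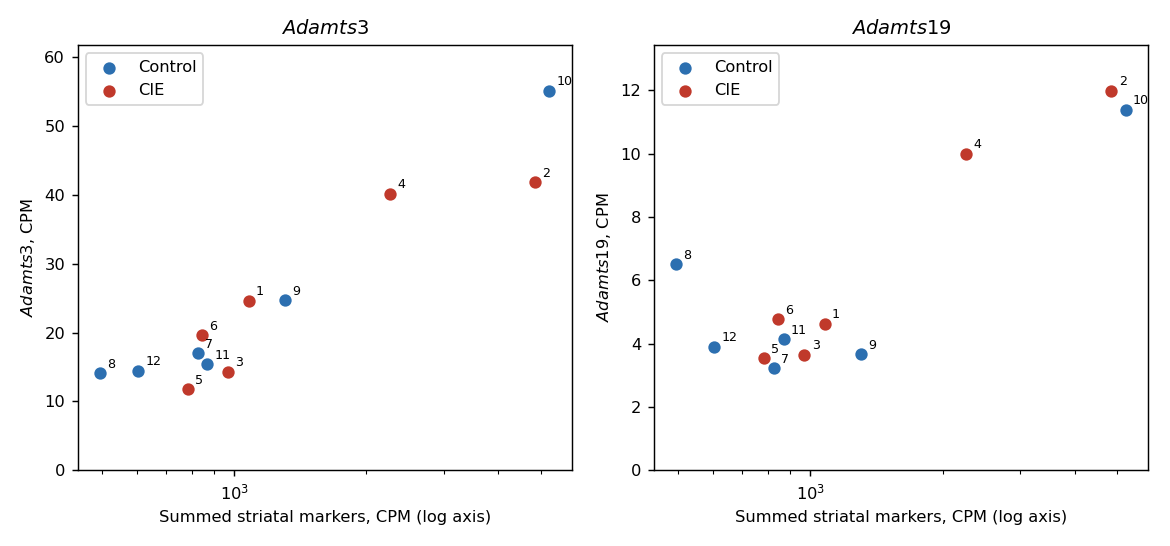
*Adamts3* (left) and *Adamts19* (right) in CPM on the y axis against the summed CPM of 12 striatal projection neuron markers on a log x axis, with each point 1 rat labelled by its number, Control in blue and CIE in red. CIE rats 2 and 4 and Control rat 10 stand apart in both genes and in the marker sum.

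Of the other 6 ADAMTS genes, *Adamts6* and *Adamts10* were called, in opposite directions. Both encode proteases tied to fibrillin microfibrils and connective tissue growth. *Adamts6* was at 12.1, 14.5, 11.5, 14.3, 11.3 and 14.0 CPM in the CIE rats and at 10.95, 10.1, 9.24, 14.2, 11.4 and 9.20 CPM in the Control rats. Of the Control rats, 4 were below every CIE rat. CIE rats 2 and 4 and Control rat 10 were the highest, the same 3 rats with the highest striatal marker sums, and CIE rat 6 came next. The cause of this match was not tested. The log2 fold change of *Adamts6* was 0.26 (SE 0.11, nominal p 0.0431, edgeR FDR 0.582), and the exact permutation p was 0.0541 on CPM and 0.0476 on log2 CPM. The call was lost when any 1 of CIE rats 2, 4 and 6 or Control rats 7, 8, 9, 11 and 12 was left out, at p values of 0.0510 to 0.0973, and with the cortical and striatal scores (0.19, nominal p 0.0891).

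*Adamts10* was at 18.6, 15.7, 16.1, 17.4, 16.5 and 17.7 CPM in the CIE rats and at 21.2, 19.1, 17.4, 20.2, 18.4 and 17.5 CPM in the Control rats, and 4 CIE rats were below every Control rat. Its log2 fold change was -0.16 (SE 0.07, nominal p 0.0394, edgeR FDR 0.574), with an exact permutation p of 0.0303. The call was lost when any 1 of CIE rats 2 to 5 or Control rats 7, 8 and 10 was left out, at p values of 0.0504 to 0.0989. It was also lost with the myelin score (-0.09, nominal p 0.324), the endothelial score (-0.11, nominal p 0.305), limma-voom (-0.12, nominal p 0.118) and library size only (-0.14, nominal p 0.0734). *Adamts17*, a further microfibril-linked protease, was at 7.46 ± 1.13 and 7.26 ± 0.729 CPM (SD, n = 6), a log2 fold change of 0.04 (with SE 0.11 and nominal p 0.730). *Adamts16* and *Adamts18* had log2 fold changes of -0.12 (SE 0.18) and -0.30 (SE 0.32).

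All 5 ADAMTS-like genes had log2 fold changes above 0, with a median of 0.37, and 1 of them was called. Of all genes tested, 10536 of 20944 were above 0 and 8.31% were called. *Adamtsl4* encodes a secreted protein that binds fibrillin and is known for its part in lens suspension. It was at 2.86, 3.07, 1.58, 2.56, 2.95 and 3.996 CPM in the CIE rats and at 1.36, 2.13, 1.41, 1.13, 1.27 and 1.645 CPM in the Control rats. Every CIE rat except rat 3 was above every Control rat, and the CIE mean was 1.90 times the Control mean. The log2 fold change was 0.92 (with SE 0.22, at a nominal p of 0.000766, edgeR FDR 0.118), and the exact permutation p was 0.00649. DESeq2 gave an FDR of 0.00473, and edgeR one of 0.0268 without CIE rat 3. *Adamtsl4* kept a nominal p below 0.05 under all 21 alternative fits, with a log2 fold change between 0.80 and 1.26. The value with the myelin score as a covariate was 1.26 (edgeR FDR 0.0441).

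*Adamtsl1* was at 11.3, 3.77, 3.85, 6.83, 5.96 and 7.66 CPM in the CIE rats and at 5.73, 4.84, 3.94, 4.90, 5.30 and 5.44 CPM in the Control rats. CIE values lay on both sides of the Control values, and the log2 fold change of 0.39 (SE 0.23, nominal p 0.119) was not called by edgeR. The call was reached without CIE rat 2 (nominal p 0.0351) or CIE rat 3 (nominal p 0.0394). *Adamtsl3* was at 3.93 ± 1.23 CPM (SD, n = 6) with CIE and 3.05 ± 0.510 CPM in controls (0.37, SE 0.21, nominal p 0.103), and was called without CIE rat 3 (0.50, nominal p 0.00906), with the myelin score (0.65, nominal p 0.0151) and with the endothelial score (0.62, nominal p 0.0469). *Adamtsl2*, a microfibril protein that modulates TGF-beta, was at 6.79 ± 1.46 and 6.61 ± 0.578 CPM (0.04, SE 0.14), and *Adamtsl5* had a log2 fold change of 0.24 (SE 0.35).

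**Figure D4:**
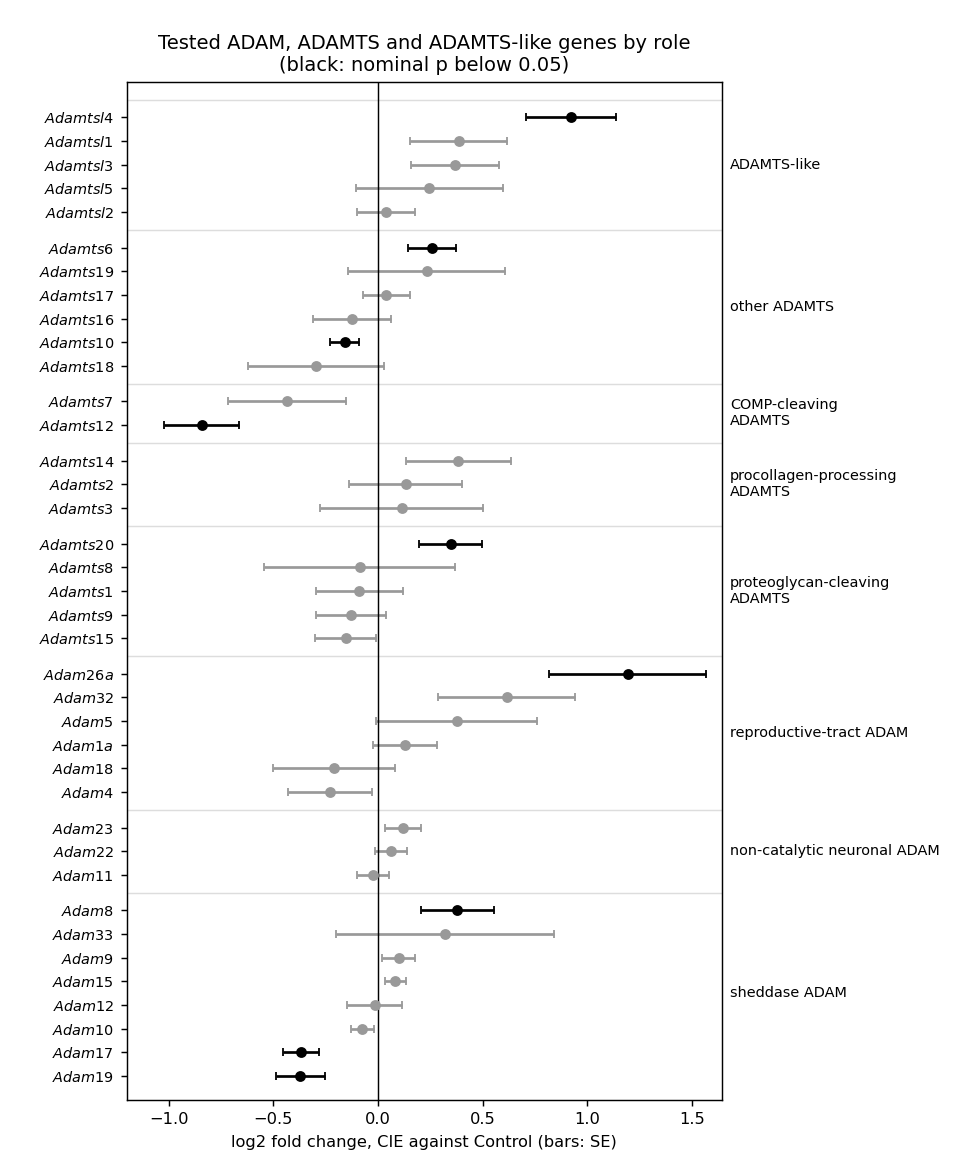
Log2 fold changes of the 38 tested members (x axis, CIE against Control, bars SE), grouped by role on the y axis, with members at a nominal p below 0.05 in black and the others in grey. Called members lie on both sides of 0, from -0.84 for *Adamts12* to 1.19 for *Adam26a*, and the 3 non-catalytic neuronal ADAMs lie near 0 with short bars.

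Genes that act with the family were examined from 4 lists. Of 14 tested genes for sheddase maturation, trafficking and inhibition, 1 was higher and 1 lower in the CIE group at a nominal p below 0.05, with a median log2 fold change of -0.07. The other 4 of the 18 listed were not tested. *Tspan10* was barely detected, and the inhibitor genes *Timp1*, *Timp3* and *Timp4* had 0 counts in every rat. As with the other genes at 0, this cannot be read as absence of their RNA. The inhibitor gene *Timp2* was not called (log2 fold change -0.07, SE 0.11, nominal p 0.548). *Reck*, a membrane-bound metalloproteinase inhibitor, was at 32.7 ± 4.74 CPM (SD, n = 6) with CIE and 25.99 ± 2.08 CPM in controls (log2 fold change 0.33, SE 0.09, edgeR FDR 0.216). *Tspan15*, a tetraspanin that escorts ADAM10 to the cell surface, was at 20.0 ± 4.19 and 26.4 ± 2.85 CPM (-0.40, SE 0.12, edgeR FDR 0.296). Of 27 sheddase substrates, 1 was higher and 1 lower (7.41%), with a median of -0.02. *Il6r*, the IL-6 receptor that ADAM17 can release, was at 13.5 ± 2.87 and 9.97 ± 0.742 CPM (0.44, SE 0.12, edgeR FDR 0.227). *Sema4d*, a semaphorin shed from the cell surface, was at 68.5 ± 14.99 and 95.2 ± 12.03 CPM (-0.48, SE 0.13, edgeR FDR 0.220).

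Of 25 ADAMTS substrates and microfibril partners, 4 were lower, none was higher and the median was -0.04. They were the fibrillar collagens *Col1a1* (log2 fold change -1.04, SE 0.19, edgeR FDR 0.0270), *Col3a1* (-1.07, SE 0.19, edgeR FDR 0.0243) and *Col1a2* (-0.77, SE 0.23, edgeR FDR 0.273), and *Thbs2*, a matricellular thrombospondin (-1.09, SE 0.24, edgeR FDR 0.0861). The 6 CIE values and the 6 Control values of *Col1a1* and *Col3a1* did not overlap. The 3 collagen genes are also in the list of meningeal fibroblast markers.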

How the data were processed

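RNA of CeA punches from 6 CIE and 6 Control rats was sequenced as poly-A libraries, 1 per rat. The authors aligned the paired reads against the Rnor_6.0 build by BWA, counted them with HTSeq and deposited raw counts per gene. The annotation and the strand and overlap settings are not given in the sources used here, so reads of overlapping genes cannot be told apart. Labels state RIN values above 8.6. Groups were taken from the treatment label, since the titles of all 12 samples, air controls included, carry the letters CIE.

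Counts were analysed with R 4.3.3, edgeR 4.0.16 (TMM, filterByExpr, quasi-likelihood F test, no covariates), DESeq2 1.42.0 and limma 3.58.1, and, for tables, permutations and plots, Python 3.11.15 with pandas 2.3.3, scipy 1.17.1, matplotlib 3.10.9 and numpy 2.4.6. SEs were computed as the absolute log2 fold change over the root of F. The edgeR fit was tested on simulated data. The paper used DESeq2, here an alternative. Other alternatives were other scalings and filters, limma-voom with quality weights, marker scores (mean log2 CPM) as covariates, leaving out each rat, and log2 CPM in the exact permutation test. Permutation tests on CPM had a smallest p of 0.00216. Correlations used 100000 permutations and a pseudocount of 0.1 CPM.

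Members and lists were chosen with earlier results of these data known. Named are members with a nominal p below 0.05, the 3 with the highest mean CPM in each role, the 3 highest and 3 lowest log2 fold changes, *Adam8* and *Adam17*, and called genes of the partner lists. All 48 symbols were found in the RefSeq table (GRCr8), used for names, order and promoters only. Other members are given briefly. Levels per transcript length, which had been planned, were not analysed here, since lengths were not in the sources used here. Errors are SDs between rats or SEs of the fit.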

Additional observations from a re-analysis of the deposited data

Results flagged for a closer look

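In each group of 6 rats, the CPM of every tested member was examined for a single rat far from the others (gap to the nearest rat over the whole range above 0.625). Of 76 groups examined, 8 had such a rat, where chance gives about 5%. CIE rat 6 stood highest in *Adam33* (1.39 CPM, next 0.684), *Adamts18* (1.86 CPM, next 1.005) and *Adamts9* (7.19 CPM, next 5.01). CIE rat 3 stood highest in *Adam4* (1.39 CPM, next 0.892) and lowest in *Adam9* (44.6 CPM, next 54.5). Control rat 10 stood highest in *Adam1a* (11.5 CPM, next 8.14) and *Adamts3* (55.2 CPM, next 24.7). Control rat 12 stood lowest in *Adam19* (15.6 CPM, next 17.9).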

How the results depend on the processing

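The 9 called members had the same sign under all alternatives, and the cause of the changes below was not tested. Members with a nominal p below 0.05 numbered 6 to 12 when 1 rat was left out, 2 to 9 of them higher and 3 to 4 lower, and members at 5% FDR 0 to 2. The number higher, 5 with all rats, was 9 without CIE rat 3, 3 without CIE rat 1, Control rat 8 or Control rat 10, and 2 without CIE rat 6, Control rat 9, Control rat 11 or Control rat 12. It was 8 with limma-voom and 2 with the cortical and striatal scores, and the number lower was 2 with the myelin score. At 5% FDR, 3 members passed with DESeq2, 3 with limma-voom (*Adamts12*, *Adamtsl4* and *Adam17* in both) and 1 with the myelin score. *Adamts3* had the opposite sign with the cortical and striatal scores (-0.30), without CIE rat 2 (-0.09) and without CIE rat 4 (-0.07). Among members not called, leaving out 1 rat also changed the sign of *Adamts19* (-0.04 to 0.58) and *Adamts2* (-0.10 to 0.27). The same held for *Adam11*, *Adam12*, *Adam33*, *Adamts1*, *Adamts8*, *Adamts17* and *Adamtsl2*. *Adam26a* was not tested with at least 10 counts in every rat. Of all genes, 3071 had a nominal p below 0.05 with the endothelial score and 3596 with limma-voom, and 1347 (without Control rat 9) to 2811 (without CIE rat 3) with 1 rat left out, against 1740. At 5% FDR there were 274 with DESeq2, 234 with limma-voom, 44, 41 and 9 with the cortical and striatal, myelin and endothelial scores, and 34 (without Control rat 9) to 154 (without CIE rat 6) with 1 rat left out, against 76. The exact permutation test on log2 CPM changed 1 of 29 calls, that of *Adamts6*. No paired analysis was made, since the paper states that rats were assigned to the 2 groups at random. They were group housed, and the labels do not give the cage of each rat. All tests therefore treat the rats as independent. Low counts limit the reproductive-tract ADAMs most, since 9 of 15 had at most 16 counts per rat.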
